A study of Mus musculus with 31 samples.

Results

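The last interval of a study of the aging mouse hippocampus, between 14.5 and 20 months of age, is described here from 12 of the 31 arrays of the series. These were all 6 arrays at 20 months (3 Glud1 Tg and 3 wt mice) and all 6 arrays at 14.5 months (3 Glud1 Tg and 3 wt mice), taken by age and genotype label and not by any measured value. All the mice were C57BL/6, and per the study's methods they were males, with 1 hippocampal RNA sample and 1 Affymetrix whole-genome mouse array per mouse. Different mice were used at each age. Tg mice carry a Glud1 transgene, for the mitochondrial enzyme glutamate dehydrogenase 1, which is overexpressed in neurons and raises their glutamate release (its promoter is not given in the sources used here). The wt mice were of the same background and age.

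The hippocampus encodes new memories through glutamatergic circuits that run from the dentate gyrus to areas CA3 and CA1. In the aging rodent hippocampus the number of principal neurons is known to be largely kept, while synapses, glia and the handling of proteins and energy change. Each array measured pieces of cRNA made from the 3' ends of transcripts, so a transcript whose copies are broken or shortened gives a different reading from each of its probe sets. In whole tissue, fewer cells of a type and less RNA per cell cannot be told apart.

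Of 45037 probe sets for mouse transcripts, 24108 lay above the array's median in enough mice to be tested, and 12054 genes could be read from them, each through its brightest probe set that lists 1 gene. The change with age was fitted with genotype as a covariate (limma, on log2 intensity), so each value below is the level at 20 months minus the level at 14.5 months. At an adjusted p under 0.05 (Benjamini-Hochberg over all probe sets), 6083 probe sets rose (25.2%) and 5212 fell (21.6%). Counted by gene, 2967 genes rose (24.6% of those tested) and 2439 fell (20.2%), against 6648 that did not pass. Changes of at least 2-fold were mostly falls, with 19 genes that rose (0.158%) and 152 that fell (1.26%), or 234 (0.971%) and 426 (1.77%) probe sets. For 1529 genes (12.7%) all 6 mice of 20 months lay above all 6 of 14.5 months, and for 1451 (12%) all 6 lay below. The median change over all genes was 0.03 on the log2 scale.

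These counts came with differences in the array controls, which are shown here before any gene. The spiked-in transcripts bioB, bioC, bioD and cre, which are added to each sample in fixed amounts and do not come from the mouse, read higher in every 20-month array than in any 14.5-month array. For bioD the log2 level was 12.47 to 12.71 at 20 months (median 12.52) and 12.08 to 12.21 at 14.5 months (median 12.16), a difference of 0.39 (exact permutation test, two-sided, p = 0.00216, the smallest that 6 against 6 allows, adjusted p = 0.00397 over 11 controls). The ratio of the 3' to the 5' probe set of beta-actin, which grows as transcripts or their copies are shortened, ran from 0.51 to 0.55 at 20 months and from 0.32 to 0.40 at 14.5 months on the log2 scale (exact permutation p = 0.00216). The same ratio for Gapdh went the other way, at -0.46 to -0.43 at 20 months and -0.40 to -0.35 at 14.5 months. The brightest signal of an array was 37192 to 41844 at 20 months and 22626 to 26606 at 14.5 months, although every array had been scaled to a trimmed mean of 500. The ages did not overlap in any of these measures. Of the 11 controls 9 passed, among them the poly-A controls lys and phe, which read lower at 20 months with overlapping ranges. Each age was also its own set of arrays, so the age of the mice and the handling of their arrays cannot be told apart.

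**Figure D1:**
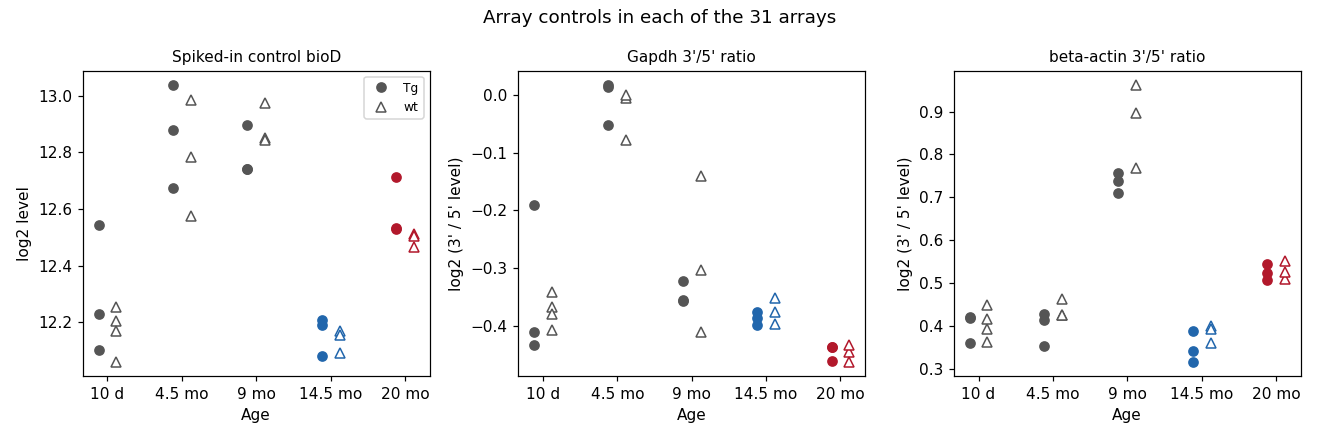
Level of the spiked-in control bioD (log2), log2 of the Gapdh 3'/5' ratio and log2 of the beta-actin 3'/5' ratio (vertical axes) in each of the 31 arrays, by age (horizontal axis; filled circles Tg, open triangles wt). The 6 arrays at 20 months lie above the 6 at 14.5 months for bioD and for beta-actin and below them for Gapdh, with no overlap, and the beta-actin ratio is higher at 9 and 20 months than at the other ages.

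The change with age was also fitted with a term for these controls, and the counts are given here for all genes and below for the main lists. With the mean spiked-in level as a covariate (applied to single genes and lists after the data were seen, as were the terms that follow) 450 genes rose and 666 fell, with the Gapdh ratio 276 rose and 455 fell, and with the beta-actin ratio 5 rose and 123 fell. Since each control nearly restates age, such a fit has little left with which to estimate the effect of age, and a gene that did not pass it was not thereby shown to be unchanged. The 24 largest changes, described below, kept their direction under all 3 covariates. Of them 19, 18 and 12 passed the test with the spiked-in, Gapdh and beta-actin term in turn. They were chosen for their size and lack of overlap on these same arrays, so this adds no support and does not speak for other genes.

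Another limit lay in the probe sets. Of 2213 genes with more than 1 probe set past the test, 806 (36.4%) had probe sets that moved in opposite directions. Where another probe set of a named gene passed in the opposite direction, this is said beside the gene.

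Glud1 is read by 2 probe sets in the 3' region, which per the study is absent from the transgene, and they give no check of the genotypes. The brighter had log2 levels of 12.41, 12.42 and 12.33 in Tg mice and 12.40, 12.30 and 12.29 in wt mice at 20 months, against 12.38, 12.61 and 12.50 in Tg and 12.53, 12.58 and 12.46 in wt mice at 14.5 months. It fell by 0.15 ± 0.04 (SE, adjusted p = 0.00813), while the other probe set rose by 0.27 (adjusted p = 1.17e-05). The probe sets of the native Glud1 transcript thus disagreed in direction.

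The 12 largest falls and the 12 largest rises were taken from genes that passed the test, changed with the same sign in Tg and wt mice, did not overlap between the ages and lay above the 60th percentile in mean level. The falls were of neuronal and broadly used genes. The AMPA receptor partner Prrt1 had log2 levels of 10.39 to 10.73 at 20 months (median 10.50) and 12.29 to 12.70 at 14.5 months (median 12.39), a change of -1.92 ± 0.07 (SE, adjusted p = 2.95e-11), or 3.78-fold lower, and its other probe set also fell. Slc17a7, which encodes VGLUT1, the transporter that fills synaptic vesicles with glutamate, stood at 11.27 to 11.53 (median 11.46) at 20 months and 13.12 to 13.37 (median 13.21) at 14.5 months and fell by 1.80 ± 0.05, or 3.48-fold. Rad23b, a carrier of ubiquitinated proteins to the proteasome that also acts in DNA repair, stood at 10.28 to 10.46 at 20 months and at 12.02 to 12.28 at 14.5 months and fell by 1.83 ± 0.05. In none of the 3 did a mouse of 20 months come within 1 log2 unit of a mouse of 14.5 months. Of the other 3 probe sets of Rad23b, 2 fell and 1 rose.

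The remaining 9 of the 12 largest falls lay between -1.50 and -1.72. They included Lrrc4b (-1.65), a synaptic adhesion protein, Mpp2 (-1.52), a scaffold of the postsynaptic membrane, and Nell2 (-1.57), a secreted protein of neurons. Ap2a1 (-1.63) encodes a subunit of the AP-2 adaptor of clathrin-mediated endocytosis, and Atp6v0a1 (-1.50) a subunit of the proton pump that acidifies vesicles. Polr2a (-1.59) encodes the catalytic subunit of RNA polymerase II, Scaf1 (-1.72) a protein that binds its tail, Atn1 (-1.64) the transcriptional corepressor atrophin-1 and Man1b1 (-1.60) a mannosidase of glycoprotein quality control. Among these 9, Nell2, Polr2a and Atp6v0a1 had other probe sets past the test, and none of those rose. All 12 of the largest falls also passed the test with each of the 3 control covariates, with Slc17a7 at -1.87 (adjusted p = 0.000272) and Prrt1 at -1.61 (adjusted p = 0.00811) under the beta-actin term.

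The largest of these rises was of Malat1, a long noncoding RNA kept in the nucleus at speckles, where splicing factors gather. It stood at 12.80 to 13.61 at 20 months (median 13.28) and 10.66 to 11.93 at 14.5 months (median 11.09), 4.25-fold higher (2.09 ± 0.22 on the log2 scale, adjusted p = 4.73e-05). All 6 of its other probe sets rose as well, by 1.04 to 2.26. Among the 12 largest rises were a further noncoding transcript, Ftx (1.06), of the X-inactivation centre, and Med1 (1.04), a subunit of the Mediator complex that links transcription factors to RNA polymerase II. Rbfox2 (1.3), a splicing regulator, rose in its brightest probe set while its other 3 fell. Slc25a27 (1.10) encodes a mitochondrial carrier of the uncoupling protein family and Rpl27a (1.01) a ribosomal protein. The other rises, from 0.97 to 1.40, were of Gm19439, A930013F10Rik, Gm3515, 2310067E19Rik, A330023F24Rik and Rflna. None of the 12 largest rises passed the test with the beta-actin ratio as a covariate, where Malat1 stood at 1.38 (adjusted p = 0.604).

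**Figure D2:**
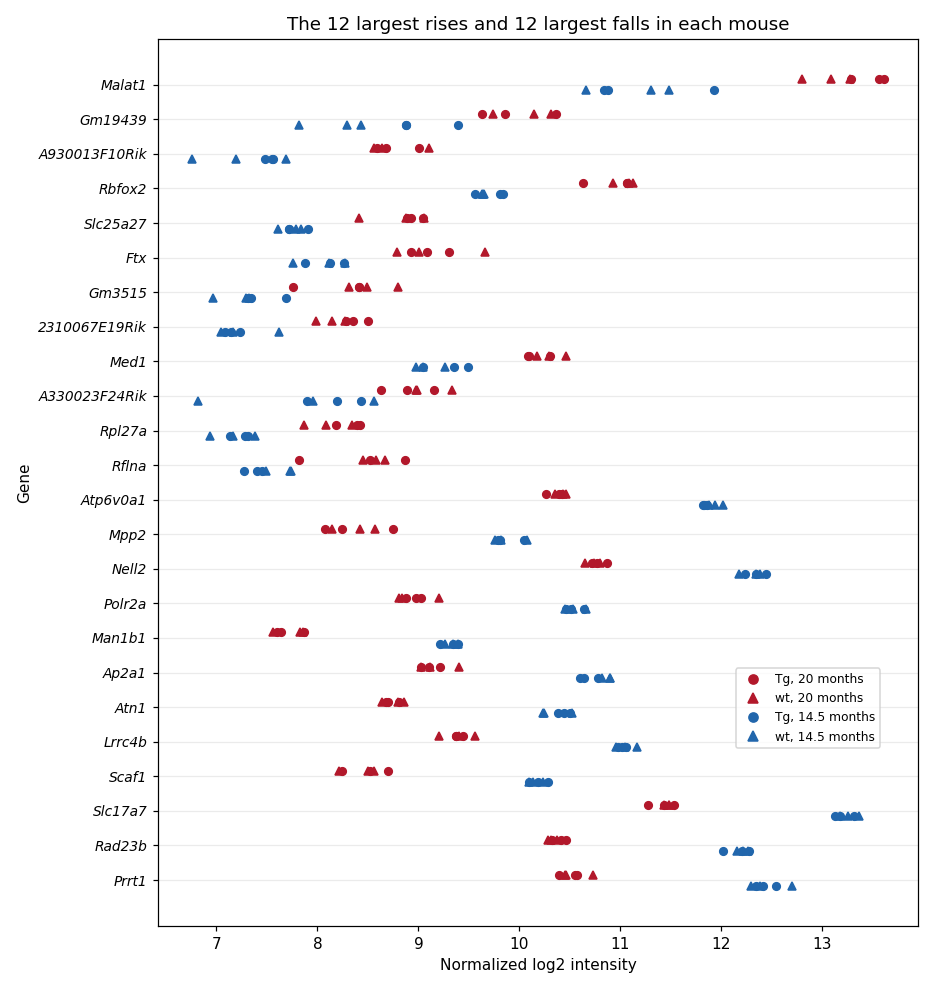
Normalized log2 intensity (horizontal axis) of the 12 largest rises and the 12 largest falls (rows) in each of the 12 mice, red for 20 months and blue for 14.5 months, circles Tg and triangles wt. The colours do not mix in any row, which the choice of these genes required.

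Many genes of the excitatory synapse were lower at 20 months. In the list of glutamate receptors and the postsynaptic density, the protein mesh under the receptor field, 20 of 45 tested members fell and 3 rose, against 20.2% and 24.6% of all genes, and the median change was -0.16. Cnih2, an auxiliary protein of AMPA receptors, fell by 1.36 ± 0.06 (11.15 to 11.52 with a median of 11.28 at 20 months, 12.57 to 12.74 with a median of 12.66 at 14.5 months). Dlg4, the scaffold PSD-95, stood at 10.81 to 11.11 at 20 months and at 11.76 to 12.04 at 14.5 months and fell by 0.95 ± 0.06. Nrgn, neurogranin, which holds calmodulin in dendritic spines, fell by 0.76, and Nlgn2, an adhesion protein of inhibitory synapses, by 0.87. None of the 6 mice of 20 months reached a mouse of 14.5 months for these 4 genes. They were named for the smallest p in their list, so this gap adds no support. Of all genes, 12% lay wholly below at 20 months. Named after their values were seen, Cacng8 (-1.20), Shank3 (-0.73), Grin2a (-0.66), Grin2b (-0.47) and Gria1 (-0.40, with a rise of 0.15 in its other probe set) fell too, while Gria2 (-0.01) and Gria3 (0.11), also subunits of the AMPA receptor, did not pass. Homer1, which ties metabotropic receptors to the scaffold, rose by 0.40, but of its other 5 probe sets 2 rose and 1 fell. In this list 9 members fell and 0 rose with the spiked-in covariate, 10 and 0 with the Gapdh ratio, and 4 and 0 with the beta-actin ratio. On log2 values without quantile normalization 20 fell and 9 rose.

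On the presynaptic side 21 of 49 tested members of the list of synaptic vesicles and release fell and 14 rose, with a median of -0.07, which turned to 0.02, with 15 falls and 15 rises, when the arrays were not quantile normalized. Beside Slc17a7, the falls included Vamp2 and Syp, the vesicle proteins synaptobrevin 2 and synaptophysin, and Bsn, the active zone scaffold bassoon. Vamp2 stood at 12.91 to 13.04 at 20 months and 13.78 to 13.87 at 14.5 months. Syp stood at 12.43 to 12.57 at 20 months and 13.31 to 13.42 at 14.5 months. Each of the 3 fell by 0.88, and the other probe sets of Vamp2 and Bsn fell as well. Without quantile normalization the changes were -0.51 for Vamp2, -0.62 for Syp and -0.83 for Bsn. With the spiked-in covariate 10 members of this list fell and 5 rose, with the Gapdh ratio 8 and 5, and with the beta-actin ratio 6 and 0. The channel lists were mixed, beside the 24.6% of all genes that rose and the 20.2% that fell. In the list of voltage-gated potassium channels, which also holds the calcium-activated Kcnn2, 9 rose and 11 fell of 32. Kcnh3 changed by -0.82 and Kcnn2, which damps repeated firing, by 0.55. Of sodium and calcium channels 5 rose and 8 fell of 23, with Cacnb1, a calcium channel subunit, at -1.01 in the brightest of its 4 probe sets, all of which fell. Gabra2, Gabrb1 and Gabrb2 of the GABA-A receptor rose by 0.21 to 0.36, although Gabra2 had 1 further probe set that fell and Gabrb2 had 1 further that rose and 1 that fell, and the whole list had 3 rises and 3 falls of 11.

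In the list of the microtubule and actin cytoskeleton 16 of 47 fell and 7 rose, with a median of -0.05. Without quantile normalization the split turned round, to 10 falls and 23 rises with a median of 0.15. Tubb4a, a neuronal and oligodendroglial beta-tubulin, stood at 11.87 to 12.15 at 20 months and 13.12 to 13.37 at 14.5 months and fell by 1.26 ± 0.05. Map1a, a stabilizer of dendritic microtubules, fell by 1.12, Kif1a, the motor that carries synaptic vesicle precursors, by 0.74, and the spine protein Dbn1 by 0.65. Of this list 9 fell and 3 rose with the spiked-in covariate, 5 and 1 with the Gapdh ratio, and 4 and 0 with the beta-actin ratio. In the list of neurogenesis and immature neurons 8 of 27 fell and 3 rose. Among the falls were Dpysl5 (-1.19), Crmp1 (-0.37) and Stmn2 (-0.33), which shape growth cones. The other probe set of Stmn2, with a mean of 12.53 at both ages, did not pass (-0.001, adjusted p = 0.985 by limma). Sox11 (0.63), a transcription factor of newborn neurons, rose, and 3 of its 5 other probe sets rose and none fell. Markers of hippocampal areas and of neighbouring regions are set beside these neuronal lists. Those of CA1 had 4 falls and 0 rises of 9, with Fibcd1 at -0.63, Mpped1 at -0.32 and Wfs1 at -0.24, those of CA2 and CA3 had 3 falls of 12, those of dentate granule cells 2 falls of 12, and those of striatum, a neighbouring region, 4 falls of 8. Against the 20.2% of all genes that fell, the counts for CA2 and CA3 and for the dentate gyrus are near the background. Markers of thalamus and habenula had 2 rises of 12 and those of cortex and subiculum 2 rises and 1 fall of 15. Their part in the synaptic falls was not tested.

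**Figure D3:**
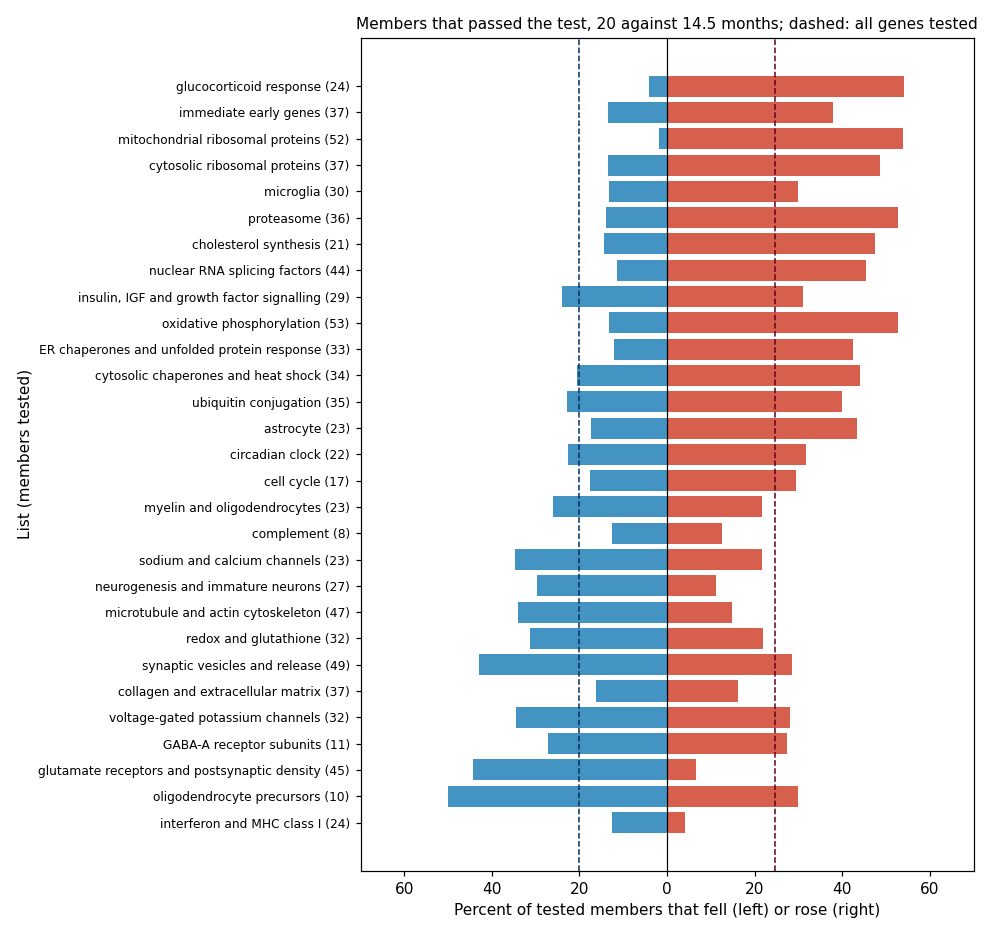
Share of the tested members of each process list (rows, members tested in parentheses) that rose (red, to the right) or fell (blue, to the left) at 20 against 14.5 months, in percent, ordered by median change, with dashed lines at the shares of all genes tested (24.6% and 20.2%). Glutamate receptors and the postsynaptic density fell in 44.4% of members and rose in 6.67%, while mitochondrial ribosomal proteins rose in 53.8% and fell in 1.92%.

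Many genes of protein and energy supply rose, by small amounts. The counts stand beside the 24.6% of all genes that rose and the 20.2% that fell. Of the mitochondrial ribosomal proteins, which make the respiratory chain subunits encoded in mitochondrial DNA, 28 of 52 rose and 1 fell, with a median of 0.15. Mrpl39 stood at 11.72 to 11.86 at 20 months and 11.21 to 11.30 at 14.5 months and rose by 0.52 ± 0.04, and Mrpl49 (0.49), Mrpl13 (0.44) and Mrpl22 (0.44) were next. Of the cytosolic ribosomal proteins 18 of 37 rose and 5 fell (median 0.14), with Rpsa at 0.36, Rpl11 at 0.31 and Rps19 at 0.30. Of the subunits of oxidative phosphorylation 28 of 53 rose and 7 fell (median 0.09), with Atp5c1 (0.30), Ndufa8 (0.28) and Ndufb8 (0.26) rising and Sdhc, a membrane subunit of succinate dehydrogenase, falling by 1.09 ± 0.06. Their counts moved with the scaling. Without quantile normalization 34 cytosolic ribosomal genes rose and 0 fell (median 0.39), 45 genes of oxidative phosphorylation rose and 2 fell (median 0.30), and 20 mitochondrial ribosomal genes rose and 5 fell (median 0.12). With the spiked-in covariate 3 mitochondrial ribosomal genes rose and 0 fell, 6 and 0 cytosolic ribosomal genes, and 4 and 2 genes of oxidative phosphorylation. With the Gapdh ratio these were 6 and 0, 5 and 0, and 4 and 1 in the same order. With the beta-actin ratio 0 members of the 3 lists passed in either direction.

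The machinery of protein turnover split by gene, where 24.6% of all genes rose and 20.2% fell. Of the proteasome, the complex that degrades ubiquitinated proteins, 19 of 36 rose and 5 fell, with Psmb3 at 0.53 and Psmd14, the deubiquitinase of its lid, at 0.34, and with Psmb7 at -0.54 and Psmd3 at -0.45. Among ubiquitin-conjugating enzymes 14 of 35 rose and 8 fell. Ube2g2, which acts in the degradation of endoplasmic reticulum proteins, stood at 10.10 to 10.25 at 20 months and at 9.47 to 9.64 at 14.5 months and rose by 0.64, while Ube2o (-0.71) and Ube2n (-0.56) fell. Of nuclear RNA splicing factors 20 of 44 rose and 5 fell. Tra2b (0.59) and Luc7l3 (0.54) rose, with their other probe sets, and Hnrnpl fell by 0.76. With the spiked-in covariate 3 proteasome genes rose and 2 fell, and 7 splicing factors rose and 1 fell. With the Gapdh ratio 3 proteasome genes rose and 3 fell, and 4 splicing factors rose and 1 fell. With the beta-actin ratio 1 splicing factor fell and no other member of these 2 lists passed.

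Chaperones rose in part. In the list of cytosolic chaperones and heat shock proteins 15 of 34 rose and 7 fell (median 0.08), against 24.6% and 20.2% of all genes. Chordc1, a cochaperone of Hsp90, stood at 10.69 to 10.99 at 20 months and 10.02 to 10.33 at 14.5 months and rose by 0.67 ± 0.06 (adjusted p = 2.93e-07). Dnajb4 (0.51), Hspa1b (0.48) and Cct3 (0.47), a subunit of the ring that folds actin and tubulin, rose with it. All 4 were named for the smallest p in their list, so their lack of overlap between the ages adds no support. Of all genes, 12.7% lay wholly above at 20 months. In the endoplasmic reticulum, where secreted proteins fold, 14 of 33 rose and 4 fell. Hspa5 (BiP) rose by 0.48 and Xbp1, a transcription factor of the unfolded protein response, by 0.43, while the calcium-binding chaperone Calr fell by 0.44. Of the cytosolic list 3 rose and 1 fell with the spiked-in covariate, 0 rose and 1 fell with the Gapdh ratio, and 1 rose and 0 fell with the beta-actin ratio. Of the endoplasmic reticulum list 2 rose and 1 fell with the first of these terms, 1 rose and 1 fell with the second, and 0 passed with the third.

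The promoters of a stress-induced chaperone, an activity-induced gene and a clock gene that rose are shown for the motifs known to drive such genes. Each window runs 5' to 3' along the gene from 250 bases before to 50 bases after its start (RefSeq, GRCm38.p6), in lower case, with every match of the motif named for that gene in capitals: the paired heat shock elements TTCNNGAA for Chordc1 (chr9:18292017-18292316, plus strand), the cyclic AMP response element TGACGTCA for Dusp1 (chr17:26508423-26508722, minus strand) and the E-box CACGTG for Cry1 (chr10:85185005-85185304, minus strand).
Chordc1: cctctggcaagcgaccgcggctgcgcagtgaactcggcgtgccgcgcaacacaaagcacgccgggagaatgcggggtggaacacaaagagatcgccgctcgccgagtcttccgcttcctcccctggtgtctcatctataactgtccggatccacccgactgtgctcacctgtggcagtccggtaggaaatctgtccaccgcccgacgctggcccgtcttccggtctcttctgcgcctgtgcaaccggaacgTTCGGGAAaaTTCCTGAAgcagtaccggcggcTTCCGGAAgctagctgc
Dusp1: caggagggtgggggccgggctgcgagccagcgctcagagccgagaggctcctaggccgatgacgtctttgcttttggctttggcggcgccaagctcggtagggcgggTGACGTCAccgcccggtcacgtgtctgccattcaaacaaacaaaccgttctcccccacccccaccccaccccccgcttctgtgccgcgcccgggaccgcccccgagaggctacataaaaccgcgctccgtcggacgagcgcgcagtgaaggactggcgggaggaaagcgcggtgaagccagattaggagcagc
Cry1: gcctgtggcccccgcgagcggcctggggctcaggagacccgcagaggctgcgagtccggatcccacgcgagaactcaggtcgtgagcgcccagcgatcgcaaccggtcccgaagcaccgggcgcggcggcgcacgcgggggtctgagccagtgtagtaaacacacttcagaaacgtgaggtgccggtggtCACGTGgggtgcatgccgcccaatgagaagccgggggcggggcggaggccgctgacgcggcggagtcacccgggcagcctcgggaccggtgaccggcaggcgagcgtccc
Each motif reads the same on both strands. The Dusp1 window also holds CACGTG 1 time, left in lower case. TTCNNGAA matched 3 times in the Chordc1 window and was found in 7 of the 29 tested chaperones with a promoter in the table (24.1%), against 9.6% of all 27025 genes there, and it was held by 4 of the 12 chaperones that rose and had a promoter there. TGACGTCA was found in 3 of 29 immediate early genes (10.3%), against 2.03% of all genes, and CACGTG in 4 of 18 clock genes (22.2%), against 8.09%. Of the members that rose and had a promoter there, 2 of 13 immediate early genes held TGACGTCA and 1 of 4 clock genes held CACGTG. A match is a stretch of letters and not a measured binding site.

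Genes induced by stress hormones and by neuronal activity were in part higher at 20 months. In the list of the glucocorticoid response 13 of 24 rose and 1 fell, with a median of 0.38. Nfkbia, the inhibitor that holds NF-kappaB in the cytoplasm, stood at 11.91 to 12.44 (median 12.39) at 20 months and 11.06 to 11.56 (median 11.37) at 14.5 months and rose by 0.96 ± 0.09. Errfi1 (0.51), a feedback inhibitor of the EGF receptor, rose, as did Tsc22d3 (0.44), the glucocorticoid-induced leucine zipper, whose ranges overlapped. Klf9, a transcription factor induced by corticosterone, rose by 0.40, and of its other 5 probe sets 4 rose and 1 fell. Fkbp5 (-0.03), a widely used reporter of the hormone, did not pass, and Sgk1 rose by 0.81; both are named after their values were seen. Of the immediate early genes, which neurons switch on within minutes of firing, 14 of 37 rose and 5 fell, against 24.6% and 20.2% of all genes. The level of this list in a mouse was the median over members of log2 intensity minus the gene's mean over the 12 mice. It ran from -0.102 to 0.308 at 20 months and from -0.114 to 0.0985 at 14.5 months, so the ages overlapped. Gadd45g rose by 0.72 and Nr4a3 by 0.42, while Jund fell by 0.41. Again named after their values were seen, Fos rose by 1.11 and Dusp1, a phosphatase in both lists, by 0.52, while Arc (0.17) and Egr1 (0.08) did not pass. With the spiked-in covariate 2 members of each list rose and 0 fell. With the Gapdh ratio 0 members of the glucocorticoid list passed and 1 immediate early gene fell, and with the beta-actin ratio 0 members of either list passed.

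The clock list had 7 rises (31.8%) and 5 falls (22.7%) of 22, against 24.6% and 20.2% of all genes. It holds genes that peak at different times of day. Arntl (BMAL1) rose by 0.47 and Cry1 by 0.64, and Tef, a transcription factor of the clock's output, fell by 0.29. Csnk1d rose by 0.63 in its brightest probe set while 3 of its other 4 fell. The time of day at which the mice were killed is not given in the sources used here.

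Members of the glial lists moved in both directions. Of the astrocyte list 10 of 23 rose (43.5%) and 4 fell (17.4%), against 24.6% and 20.2% of all genes. Without quantile normalization 13 astrocyte genes rose and 3 fell. Gfap, the intermediate filament of astrocytes, stood at 10.93 to 11.37 (median 11.11) at 20 months and 12.35 to 12.62 (median 12.48) at 14.5 months and fell by 1.36 ± 0.07 in its brightest probe set, a further probe set fell by 1.19, and the other rose by 0.42. Gjb6, a gap junction protein of astrocytes, rose by 0.49, and Aldh1l1 fell by 0.29. Slc1a2, the main glutamate transporter of astrocytes and among the brightest genes, fell by 0.19, but rose by 0.46 (adjusted p = 4.27e-07) without quantile normalization, and 1 of its other 3 probe sets rose by 0.92. Of the microglial list 9 of 30 rose (30%) and 4 fell (13.3%), with a median of 0.14, so the share that rose was near that of all genes. Without quantile normalization 10 microglial genes rose and 3 fell. Laptm5 (0.69), Grn (0.41), Csf1r (0.40) and Ctss (0.33) were among those that rose. Both other probe sets of Laptm5 fell, as did 1 of the 2 of Csf1r. With the spiked-in covariate 2 astrocyte genes fell and 3 microglial genes rose, with the Gapdh ratio 1 astrocyte gene rose and 1 fell and 3 microglial genes rose and 1 fell, and with the beta-actin ratio 1 astrocyte gene fell. Complement had 1 rise and 1 fall of 8, C1qb at 0.19 and C1qc at -0.15. In the interferon and MHC class I list 1 rose and 3 fell of 24.

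Oligodendrocyte genes were split as well. Sox10, a transcription factor of the whole lineage, stood at 8.52 to 9.30 at 20 months and 9.48 to 10.20 at 14.5 months and fell by 0.89 with both of its other probe sets. Olig1 (0.42), Cryab (0.54), Bcas1 (0.57) and Gpr17 (0.63), the last a receptor of cells on the way to myelination, rose. Cacng4 of the precursor list fell by 1.16. The myelin list had 5 rises and 6 falls of 23 and the precursor list 3 and 5 of 10, against 24.6% and 20.2% of all genes. In cholesterol synthesis 10 of 21 rose and 3 fell (median 0.12). Without quantile normalization 7 rose and 4 fell (median 0.06). With the spiked-in covariate 3 rose and 2 fell, with the Gapdh ratio 2 and 2, and with the beta-actin ratio 0 and 1. The pathway enzymes Fdps (0.53) and Fdft1 (0.48) rose, whereas Srebf2, the transcription factor of the pathway, fell by 1.08 with its other probe set, and Cyp46a1, which turns over cholesterol in neurons, fell by 0.72. Among redox genes 7 rose and 10 fell of 32, a split that turned to 10 rises and 8 falls without quantile normalization. Mt3, the brain's metallothionein, stood at 12.60 to 12.77 at 20 months and 13.64 to 13.86 at 14.5 months and fell by 1.04 ± 0.04, Mt2 rose by 0.36, and Sod1 fell by 0.28 in its brightest probe set while 2 of its other 3 rose. In insulin and growth factor signalling 9 of 29 rose (31%) and 7 fell (24.1%), near the shares of all genes. Akt1 (-0.72), Tsc2 (-0.68) and Igfbp4 (-0.47) fell and Tsc1 (0.38) rose.

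Markers of tissue from beside the hippocampus differed in level from mouse to mouse, and a difference in dissection was not tested. None of the 15 tested markers of choroid plexus, the epithelium that makes cerebrospinal fluid, passed the test. Their level in a mouse, the median over the markers of log2 intensity minus the marker's mean over the 12 mice, was 0.68, 0.38 and -2.27 in Tg mice and -1.97, 0.87 and 0.66 in wt mice at 20 months, against 0.82, 1.12 and -1.68 in Tg and 0.41, 0.27 and 0.74 in wt mice at 14.5 months. The level was far lower in 2 mice of 20 months and 1 mouse of 14.5 months than in the rest. Markers of meninges and fibroblasts had 1 fall and 0 rises of 13, those of endothelium 3 and 3 of 14, and those of pericytes and smooth muscle 3 rises of 10. Of all genes, 24.6% rose and 20.2% fell. The endothelial genes Slc2a1 (0.49), Cdh5 (-0.68) and Slc7a5 (-0.55) moved in opposite directions. Collagen and matrix genes had 6 rises and 6 falls of 37. Of the perineuronal net, Ncan (-0.50) and Hapln4 (-0.45) fell. Bcan, also of that net, rose by 0.28 in its brightest probe set while its other probe set fell by 0.51.

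The interval was also followed in each genotype alone. In Tg mice 1930 genes rose (16%) and 1690 fell (14%), and in wt mice 1969 rose (16.3%) and 1786 fell (14.8%). By probe set 3945 rose (16.4%) and 3637 fell (15.1%) in Tg mice, and 4084 rose (16.9%) and 3672 fell (15.2%) in wt mice. The genotypes shared no array, and 2521 genes passed in both (69.6% of the Tg calls and 67.1% of the wt calls), of which 2513 moved the same way. Across the 12054 genes the changes had a Pearson r of 0.733, given as a description, since genes are not independent replicates and the arrays of an age share their handling.

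**Figure D4:**
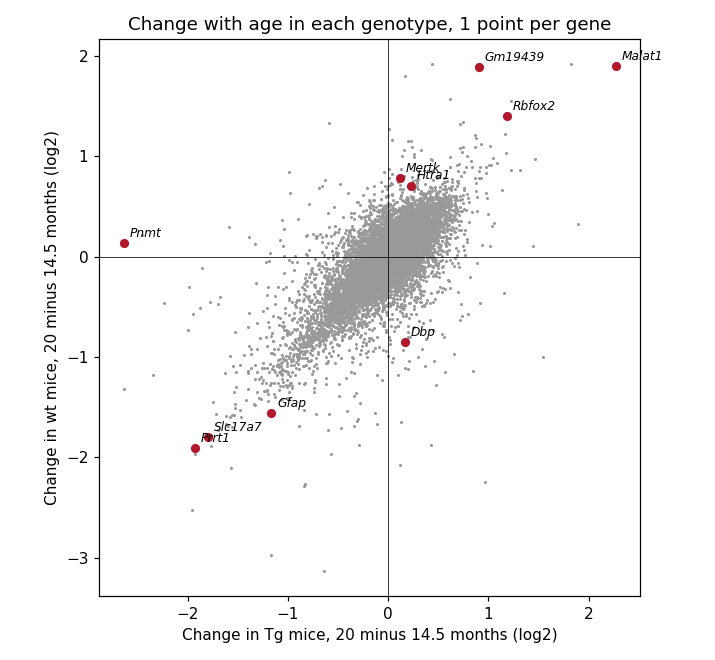
Change at 20 minus 14.5 months (log2) in Tg mice (horizontal axis) against that in wt mice (vertical axis), 1 point per gene, with 10 genes in red. Most points follow the diagonal, with Prrt1 and Slc17a7 low and Malat1 high on both axes, whereas Pnmt is low on the Tg axis alone and Dbp on the wt axis alone. Pnmt was read at a low level.

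Whether the change with age differed between the genotypes was tested by their interaction, which no probe set passed (0 of 24108 at an adjusted p under 0.05 by limma, 1583 at an unadjusted p under 0.05). The genes with the smallest p are given as values. Dbp, a transcription factor driven by the clock, stood at 11.64, 11.53 and 11.43 in Tg mice and 10.40, 10.46 and 10.54 in wt mice at 20 months. At 14.5 months it was at 11.44, 11.50 and 11.15 in Tg and 11.10, 11.43 and 11.42 in wt mice, so that the change was 0.17 in Tg and -0.85 in wt mice (interaction 1.02 ± 0.14, adjusted p = 0.0567). Ciart, a further clock output gene, changed by 0.26 in Tg and -0.70 in wt mice (adjusted p = 0.142). Mertk, a receptor with which glia engulf debris, changed by 0.12 in Tg and 0.78 in wt mice (adjusted p = 0.0567). The secreted protease Htra1 changed by 0.23 in Tg and 0.71 in wt mice (adjusted p = 0.142). Pnmt, the enzyme that makes adrenaline, stood at 5.17, 4.60 and 4.88 in Tg and 7.01, 8.28 and 6.98 in wt mice at 20 months, against 7.15, 7.85 and 7.56 in Tg and 7.05, 7.31 and 7.51 in wt mice at 14.5 months (adjusted p = 0.142). This gene was read at a low level. The array medians at 20 months were 6.80 to 6.93 before quantile normalization, above its Tg values at that age. Dbp and Mertk did pass without quantile normalization (adjusted p = 0.0204 for each), and Pnmt and the other probe set of Dbp passed when all 31 arrays shared 1 estimate of the spread (adjusted p = 0.0131 for each). With the replicate number as a block within each genotype, a fit added after the data were seen, both probe sets of Dbp passed (adjusted p = 0.0074 and 0.0244).

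The same genes were then read at the earlier ages. Slc17a7 averaged 11.27 at 10 days, 13.36 at 4.5 months, 12.59 at 9 months, 13.23 at 14.5 months and 11.44 at 20 months. Prrt1 averaged 10.28, 12.92, 10.94, 12.44 and 10.53 over the same ages in that order, and Malat1 12.25, 12.20, 14.45, 11.18 and 13.27. None of the 3 ran in one direction over adult life, since each had a dip or a peak at 9 months. The step from 4.5 to 9 months, which shares no array with the step from 14.5 to 20 months, was therefore also fitted. This comparison, added after the data were seen, used the same model and the same 12054 genes. Those genes and their probe sets had been chosen on the arrays of 14.5 and 20 months. At 9 against 4.5 months 4573 genes passed (37.9%), with 2101 rises (17.4%) and 2472 falls (20.5%). All 12 of the largest late falls also fell then, with changes from -1.98 for Prrt1 to -0.21 for Atp6v0a1, and 7 of the 12 largest late rises also rose while the other 5 did not pass. Of the 5406 genes that changed between 14.5 and 20 months 2638 had also changed between 4.5 and 9 months (48.8% of the late and 57.7% of the early calls), and 2216 of them (84%) in the same direction. Across the 12054 genes the 2 changes had a Pearson r of 0.394, or 0.389 without quantile normalization, as a description across genes. In a fit of all 31 arrays 11523 probe sets passed at 9 against 4.5 months, 12799 at 14.5 against 9 months and 8760 at 20 against 14.5 months. The median absolute changes were 0.262, 0.287 and 0.205 in the same order, so in this fit the late step had the lowest values. In the separate fits more genes passed at the late step (5406) than at 9 against 4.5 months (4573). The counts of calls thus do not rank these 2 steps.

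**Figure D5:**
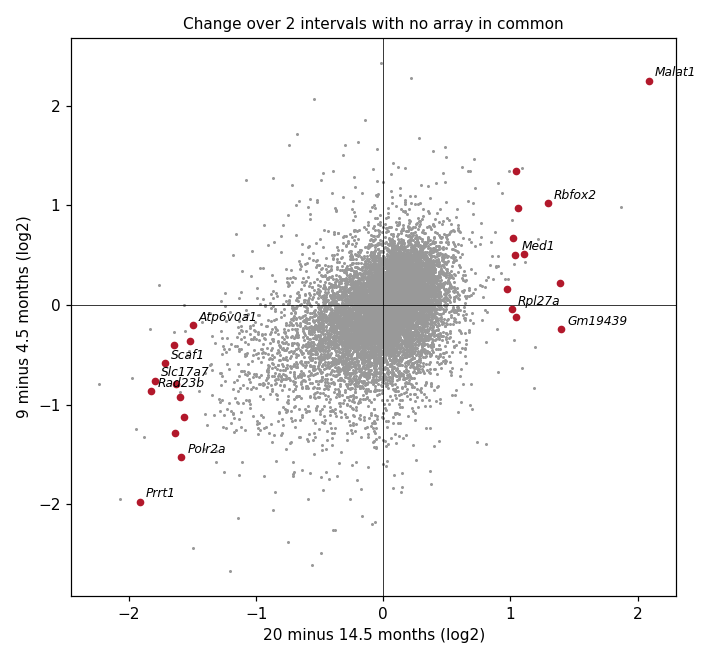
Change at 20 minus 14.5 months (horizontal axis, log2) against change at 9 minus 4.5 months (vertical axis, log2), 1 point per gene, with the 24 largest late changes in red. The 12 largest late falls all lie below 0 on the vertical axis, with Prrt1 the lowest of them, and Malat1 is at the upper right.

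The beta-actin ratio moved over the same steps. Its median on the log2 scale was 0.43 at 4.5 months, 0.76 at 9 months, 0.37 at 14.5 months and 0.52 at 20 months, and the arrays of 9 and 4.5 months did not overlap. The Gapdh ratio had medians of -0.00225 at 4.5 months, -0.34 at 9 months, -0.38 at 14.5 months and -0.44 at 20 months. The part of either ratio in the genes that moved at both steps was not tested.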

How the data were processed

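Hippocampal RNA of each mouse was hybridised to 1 array, and the deposited values are MAS5 signal intensities, named so in the submitters' processing notes with no version given; the authors' scaling left a 2%-trimmed mean of 500 on every array. Values that the study derived by other summaries, and its own lists of changed genes, were not used. After log2 transformation, all 31 arrays were brought to 1 distribution by quantile normalization. Of 45101 probe sets 64 were controls, and a mouse probe set was tested if it exceeded its array's median on at least 3 of the 12 arrays. Tests used limma 3.58.1 in R 4.3.3 (trend and robust moderation, genotype as covariate, Benjamini-Hochberg over 24108 probe sets, threshold 0.05), and the control measures an exact permutation test. Genes came from the platform annotation, where 34945 probe sets had 1 gene, 932 several and 9160 none, and symbols were updated through RefSeq. A gene was read from its brightest probe set with 1 gene, so its level is not comparable with that of another gene.

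Genes were named by a rule: the 12 largest rises and falls past the threshold, of the same sign in both genotypes, without overlap of the ages and above the 60th percentile in mean; up to 4 members of each process list and 3 of each marker list by smallest p; the 5 smallest interaction p; and Glud1. The comparison, its members and all lists were chosen with earlier results of these data known. The 3 mice of a group are separate animals. Deviations from the group mean of same-numbered Tg mice of 20 and 14.5 months correlated at 0.167 to 0.379 in the 3 pairs, and those of all other same-numbered pairs at -0.124 to 0.139, so a replicate block within genotype was also fitted. The scripts were tested on simulated data. Alternatives covered normalization, offset, filter, moderation, samples, covariates, replicate block and probe set choice. The number of arrays limits the precision.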

Additional observations from a re-analysis of the deposited data

Results flagged for a closer look

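Among 108 groups of 6 mice of 1 age (array controls and list levels), 10 had a mouse whose distance from the rest was large against the group's range by Dixon's criterion, which chance alone meets in about 1 of 20 groups. A list level is the median over members of log2 intensity minus the gene's mean over the 12 mice.

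Tg replicate 3 of 14.5 months stood apart by this criterion in 4 lists, below the others in each. Its choroid plexus level was -1.68 (0.267 to 1.12 in the other 5), its meninges and fibroblast level -1.07 (0.326 to 0.634), its interferon and MHC class I level -0.336 (0.119 to 0.254) and its endothelial level -0.21 (0.00103 to 0.0909). Tg replicate 3 of 20 months had an interneuron level of -0.256 (-0.0363 to 0.0504 in the others) and a thalamus and habenula level of 0.617 (-0.156 to 0.104). The complement level was 0.167 in wt replicate 1 of 20 months (-0.00278 to 0.0567), and the immediate early gene level 0.0985 in wt replicate 2 of 14.5 months (-0.114 to -0.0783). Among the controls, Tg replicate 2 of 20 months had bioD at 12.7 (12.5 in the others) and poly-A thr at 10.1 (10.3 in the others) on the log2 scale.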

How the results depend on the processing

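The 11295 probe sets called between the ages became 2299 with the spiked-in level as a covariate, 1511 with the Gapdh ratio, 221 with the beta-actin ratio (chosen after seeing the data) and 4496 when calls also needed a 1.3-fold change and were held to 0.01. They numbered 8760 to 11561 under the other settings, with 11356 (5754 higher, 5602 lower) without quantile normalization, of which 9736 were among the 11295. Leaving out 1 mouse gave 10265 to 11205 calls, in Tg mice 5829 to 7782 and in wt mice 5737 to 8234. A fit of all 31 arrays gave 4998 calls in Tg mice. The interaction had 2 calls without quantile normalization, above the 60th percentile, or in the fit of 31 arrays, and 0 to 7 on leaving out 1 mouse (2 without wt replicate 1 of 14.5 months, 7 without Tg replicate 3 of 20 months, from Htra1, Dbp, Mertk, Thrsp and Etnppl). The cause was not tested.

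The labels tie no shared litter, batch or day to the replicate numbers. With the number as a replicate block 11297 probe sets were called between the ages, 7579 in Tg mice, 7754 in wt mice and 0 for the interaction. With a replicate block within genotype, added after seeing the data, these were 11446, 7560, 7712 and 2, the 2 being both probe sets of Dbp.

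As the median over probe sets, changes turned to -0.12 for Bcan, -0.26 for Csnk1d, -0.0452 for Cux2, -0.14 for Derl1, -0.0075 for Fech, 0.0582 for Glud1, -0.53 for Laptm5, -0.43 for Rbfox2, -0.11 for Rgs16, -0.0624 for Slc25a27 and 0.19 for Sod1. Without quantile normalization Nptx1 turned to 0.0823 and Slc1a2 to 0.46. Clu ranged from -0.00924 to 0.0453 on leaving out 1 mouse. Relative to the array median, poly-A dap turned to -0.0022 and thr to -0.0034.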

Other observations

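Long noncoding RNAs were also counted as a group, with Malat1 not taken out. Of 274 tested genes annotated as such, 63 rose (23%) and 22 fell (8.03%) at 20 against 14.5 months, against 24.6% and 20.2% of all genes, with a median change of 0.07. The promoters of genes that rose, from 250 bases before to 50 after the start, had a median GC content of 61.3% (2413 of 2967 genes with a promoter in the table), those of genes that fell 63.2% (1966 of 2439) and those of genes that did not pass 60.3% (5380 of 6648). The list of single genes that the study discusses, which it chose on these samples, had 12 rises and 7 falls of 30. Interneuron markers had 2 rises and 3 falls of 17, cell cycle genes 5 and 3 of 17, ependymal markers 1 fall of 9 and blood cell markers 1 rise of 4.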
